A study of Mus musculus with 12 samples.

Results

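The genes followed here through cataract surgery in mice were 9 genes of the lens fiber cell. These were Bfsp1, Bfsp2, Lim2, Dnase2b, Lenep, Lgsn, Birc7, Caprin2 and Tdrd7. They were chosen by name, as genes of the beaded filament, the fiber membrane, organelle loss and other fiber functions with the crystallins left aside, and each symbol was found on 1 row of every deposited table, 9 of 45859 gene rows. Surgery removed the fiber cells through a corneal incision and left the capsule with its attached lens epithelial cells (LCs). RNA was taken at once (0 h) or 24 h post cataract surgery (PCS) from adult mice of 2 months, with 3 libraries in each of 4 conditions, 12 in all, and 5 capsules pooled in each library. The wild-type (WT) mice were C57BL/6. The β8ITG-cKO mice carried Itgb8 with exon 4 floxed together with MLR10-Cre, which is active in all lens cells from the lens vesicle stage, so that the floxed part was to be lost from both epithelium and fibers. They are labelled as of a mixed C57BL/6 and 129S1/Sv background, hence genotype and strain cannot be told apart, and mice of both sexes were used in the study. The paper writes C57BL/6J and 129/Sv for the floxed allele, and C57BL/6<har> for the Cre line.

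Values are FPKM (fragments counted per length of transcript and per depth of library), which are scaled for gene length, so that levels may be set side by side between genes. Tables that held the same library gave it the same FPKM. Summed FPKM ran from 446530 to 740140 per library, and the read depth is unknown, although the steps between low values placed the relative depths between 0.865 and 1.09. The gene-level FPKM of Itgb8 was 6.83, 4.58 and 7.31 in the libraries labelled β8ITG-cKO 0 h and 7.26, 10.8 and 8.42 in those labelled WT 0 h, and it was 9.28, 11.8 and 10.3 in those labelled β8ITG-cKO 24 h and 9.08, 8.38 and 9.58 in those labelled WT 24 h. The genotypes overlap at both times. This value covers the whole gene and not the floxed exon, which was not analysed here, so it does not check the labels, and the genotypes below are those of the labels. Lens epithelial markers were present in every library. The list of Foxe3, Cdh1, Pax6, Pdgfra, Itga6 and Pitx3 had none at 0. It summed to 329 to 347 FPKM in WT 0 h, 280 to 324 in WT 24 h, 421 to 512 in β8ITG-cKO 0 h and 211 to 246 in β8ITG-cKO 24 h. Pax6 was the most abundant of them in 6 libraries, Foxe3 in the 3 of β8ITG-cKO 0 h, Itga6 in 2 and Cdh1 in 1. A list of 6 other fiber markers, Mip, Crygs and Grifin among them, was also present in every library, at 3569 to 5816 summed FPKM at 0 h and 690 to 1389 at 24 h, with Crygs the most abundant.

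Lens fibers arise from epithelial cells at the lens equator, which elongate, fill with crystallins, build a specialised cytoskeleton and membrane, and then destroy their nuclei and other organelles. Filensin (Bfsp1) and phakinin (Bfsp2) are intermediate filament proteins that assemble together into the beaded filament, a structure found only in lens fibers. Lim2 is an integral membrane protein of the fiber, and Dnase2b is the acid DNase that breaks down fiber DNA when the nucleus is lost. Lengsin (Lgsn) belongs to the glutamine synthetase family, Birc7 (livin) is an inhibitor of apoptosis, and Caprin2 and Tdrd7 act on RNA in the cytoplasm, Tdrd7 as a Tudor domain protein of RNA granules whose loss causes cataract. Lenep encodes a small protein first described in lens epithelium.

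The genes lie on 7 chromosomes. On GRCm38, with the positions of RefSeq, they are Bfsp1 at chr2:143826528-143915219 (minus strand), Bfsp2 at chr9:103424924-103480405 (minus), Lim2 at chr7:43430099-43435996 (plus), Dnase2b at chr3:146569733-146617060 (minus), Lenep at chr3:89401896-89402650 (minus), Lgsn at chr1:31176281-31204725 (plus), Birc7 at chr2:180928609-180934010 (plus), Caprin2 at chr6:148842492-148896257 (minus) and Tdrd7 at chr4:45965027-46034766 (plus). All are protein coding, from 1 exon in Lenep to 19 in Caprin2. Lenep shares bases with Flad1, a gene on the same strand, so reads of the pair could have been split uncertainly. In WT, Flad1 had a mean of 2.38 FPKM at 0 h, where Lenep had 74.4, and of 3.44 at 24 h, where Lenep had 3.71. In β8ITG-cKO, Flad1 had 2.87 and 3.61 FPKM and Lenep 45.3 and 3.52, so that the level of Lenep at 24 h, and with it the size of its fall, is uncertain. Dnase2b and Lgsn overlap genes of the opposite strand (Uox and 4931428L18Rik), whose mean FPKM was at most 0.397 in every condition. Bfsp2 overlaps the antisense genes 5830418P13Rik and Gm16252, at most 1.84 FPKM on average, and whether strand was used in counting is not given in the sources used here.

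The bases before the start sites are shown for the 3 genes with the largest changes over time in WT LCs on the log2(FPKM + 1) scale (Lenep, Lim2 and Bfsp1) and for Caprin2, with the smallest of the 8 genes tested. Each line gives the 250 bases upstream of a start in the RefSeq table for GRCm38.p6, 5′ to 3′ on the strand of the gene, and capitals mark the matches to 4 motifs searched on both strands. The motifs were the heat shock element GAANNTTC, the core letters TGCTGA of the Maf recognition element (read as TCAGCA on the other strand), the AP-1 site TGANTCA and the TATA box TATAAA. The windows are chr3:89402651-89402900 (Lenep, minus strand), chr7:43429849-43430098 (Lim2, plus strand), chr2:143863174-143863423 (Bfsp1, minus strand) and chr6:148896238-148896487 (Caprin2, minus strand). The starts used for Bfsp1 (143863173) and Caprin2 (148896237) lie inside the gene positions given above and not at their ends.
Lenep: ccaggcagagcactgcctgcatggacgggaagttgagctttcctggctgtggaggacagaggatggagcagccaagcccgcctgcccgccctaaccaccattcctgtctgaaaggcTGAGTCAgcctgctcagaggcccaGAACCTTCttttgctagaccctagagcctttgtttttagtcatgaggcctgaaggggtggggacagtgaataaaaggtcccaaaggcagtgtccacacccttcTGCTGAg
Lim2: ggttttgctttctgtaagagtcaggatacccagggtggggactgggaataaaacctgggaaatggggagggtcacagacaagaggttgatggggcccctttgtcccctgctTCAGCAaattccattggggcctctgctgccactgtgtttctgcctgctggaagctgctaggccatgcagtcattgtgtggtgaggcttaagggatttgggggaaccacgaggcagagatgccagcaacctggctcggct
Bfsp1: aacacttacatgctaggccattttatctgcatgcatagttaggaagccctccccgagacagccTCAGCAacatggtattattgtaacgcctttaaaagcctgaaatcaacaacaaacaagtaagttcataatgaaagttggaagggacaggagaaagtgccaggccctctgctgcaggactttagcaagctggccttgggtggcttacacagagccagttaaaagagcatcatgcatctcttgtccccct
Caprin2: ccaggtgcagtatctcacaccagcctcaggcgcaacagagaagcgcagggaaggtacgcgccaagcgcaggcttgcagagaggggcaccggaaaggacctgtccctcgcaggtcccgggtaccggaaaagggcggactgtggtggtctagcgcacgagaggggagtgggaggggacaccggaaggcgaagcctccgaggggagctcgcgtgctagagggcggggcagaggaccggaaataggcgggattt

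All of the 9 genes had an entry in the promoter table, with 11 windows in total because Tdrd7 has 3 starts. The Maf letters were found in a window of 5 of the genes, beginning 7 bases before the start in Lenep, 139 in Lim2, 187 in Bfsp1, 35 in Lgsn and 214 at one start of Tdrd7, and they occur in 16.1% of all 32851 promoters. A heat shock element was found in Dnase2b and Lenep (6.69% of all promoters), and an AP-1 site in Bfsp2 and Lenep (6.75%). A TATA box was found in Lgsn and at one start of Tdrd7 (12.4%). Counted by window, 5 of 11 held the Maf letters and 2 of 11 each of the other motifs. Counted by gene over all 27025 genes, 4871 held the Maf letters, 2088 a heat shock element, 2113 an AP-1 site and 3872 a TATA box. Birc7 and Caprin2 held none of these letters. For Bfsp2, Dnase2b and 1 of the 3 starts of Tdrd7, the bases just after the start were not found in a GENCODE transcript of the gene. For the other windows they were found, which does not show that a transcript begins there. In GENCODE the single exon of Lenep reaches chr3:89402793, beyond the start used here at 89402650. All matches in the Lenep window lie within that exon. An AP-1 site has letters in common with the full Maf recognition element, and a match only describes the letters.

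At 0 h PCS the beaded filament pair had the highest means in both genotypes. In WT LCs, Bfsp2 was at 303, 317 and 227 FPKM and Bfsp1 at 326, 304 and 210.0 FPKM, and these overlap, so the order of the pair is not resolved. Lim2 followed at 126 ± 8.26 FPKM (SD, n = 3), then Lenep at 74.4 ± 15.3, Lgsn at 59.5 ± 17.9 and Tdrd7 at 57.4 ± 7.02. The libraries of Lenep, Lgsn and Tdrd7 overlap each other in that order, while those of Bfsp1, Lim2 and Lenep do not. Caprin2 was at 7.91 ± 1.41, Birc7 at 2.06 ± 0.751 and Dnase2b at 0.837 ± 0.715 FPKM (SD, n = 3 each). Ranked by WT 0 h mean over all genes, Bfsp2 was number 124 and Bfsp1 number 126, while Dnase2b was number 13172. By mean, the β8ITG-cKO LCs had a like order at 0 h, with Bfsp1 and Bfsp2 first at 246 ± 104 and 235 ± 39.5 FPKM and Lim2 at 168 ± 19.4. Tdrd7 at 68.2 ± 3.58 was ahead of Lgsn at 47.8 ± 26.8 and Lenep at 45.3 ± 23.5, these 3 overlapping. Bfsp1 overlapped both Bfsp2 and Lim2 there. In replicate 2 Bfsp1 was at 143 FPKM and Lim2 at 176, so the order of Bfsp1 and Lim2 is not resolved in β8ITG-cKO.

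By 24 h PCS the order had shifted. Bfsp2 alone stood apart at the top in both genotypes, at 103 ± 18.9 FPKM in WT and 62.9 ± 10.2 in β8ITG-cKO (SD, n = 3 each). The next 4 genes overlapped their neighbours in WT, from Bfsp1 at 37.0 ± 10.9 through Lgsn and Tdrd7 to Lim2 at 18.4 ± 11.96 FPKM, and Lenep had moved below Caprin2, at 3.71 ± 3.57 against 4.16 ± 0.772 FPKM, although the libraries of these 2 genes overlap. Birc7 and Dnase2b were at or close to 0.

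**Figure D1:**
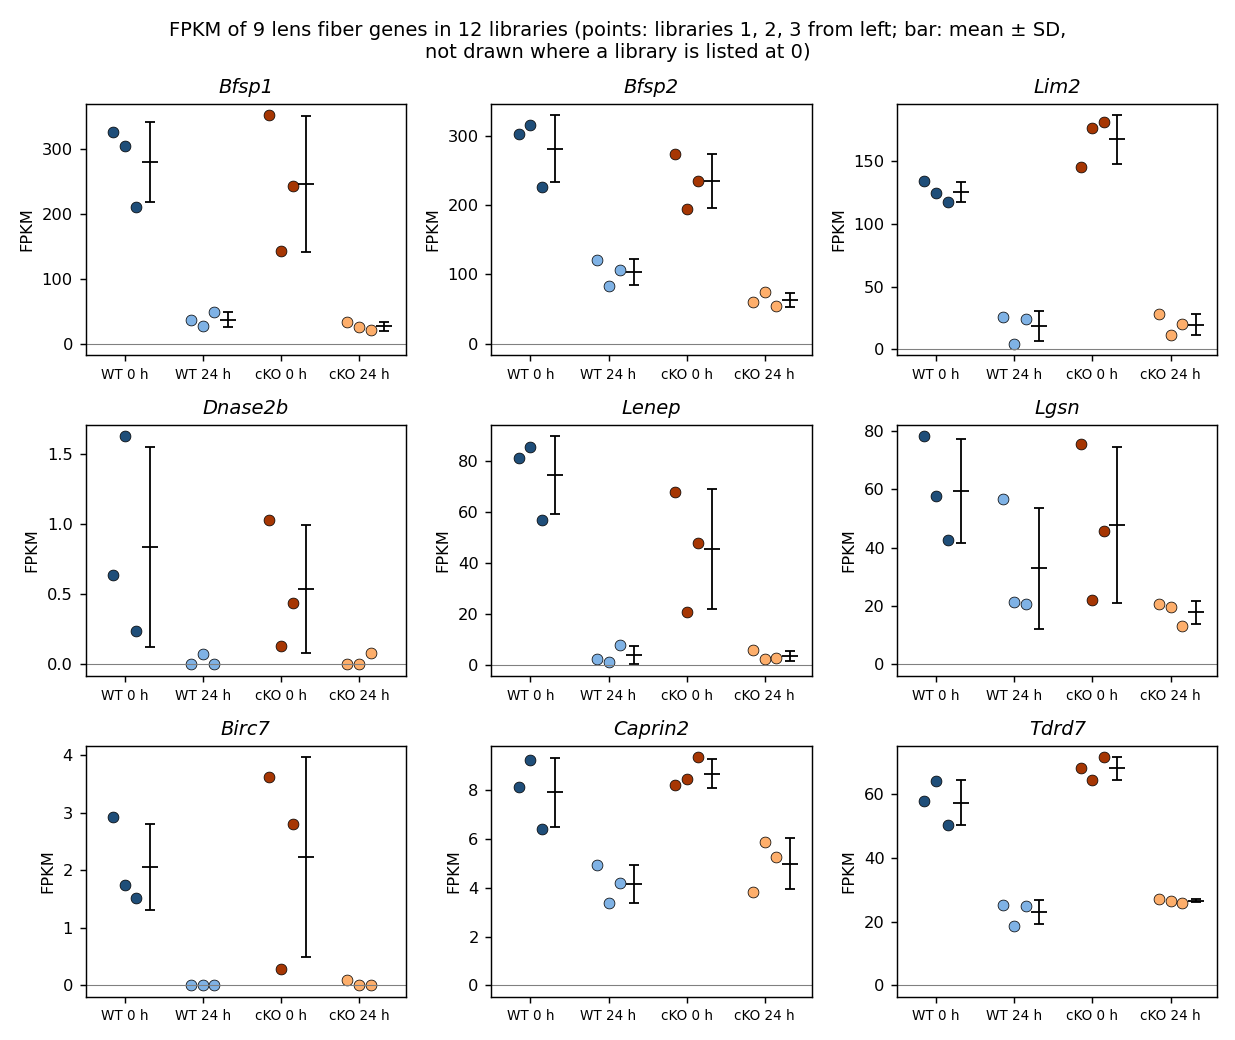
FPKM of each of the 9 genes (panels, each with its own linear axis from 0) in the 12 libraries, grouped by genotype and time; points are libraries and the bar is the mean ± SD of 3, left out where a library is listed at 0. Every 24 h library lies below every 0 h library of its genotype except for Lgsn in WT, where replicate 1 at 24 h (56.8 FPKM) lies within the 0 h values.

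The first question was how the fiber genes changed in the remnant cells over the day after the fiber mass was taken away. Both times follow the surgery, and there was no group without surgery. In WT LCs, Bfsp1 went from 326, 304 and 210.0 FPKM at 0 h to 36.3, 26.4 and 48.2 FPKM at 24 h, and its partner Bfsp2 from 303, 317 and 227 to 121, 83.2 and 106. Neither gene overlapped between the times. Bfsp1 fell by 2.90 on the log2(FPKM + 1) scale (SE 0.26, adjusted p = 0.000446 by limma) and Bfsp2 fell by 1.44 (SE 0.21, adjusted p = 0.00265), which left 13.2% of the mean FPKM of Bfsp1 and 36.6% of that of Bfsp2. The 95% intervals of the 2 changes, -3.499 to -2.31 and -1.92 to -0.97, do not meet.

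The fiber membrane gene Lim2 went from 134, 125 and 118 FPKM to 26.2, 4.63 and 24.3 FPKM in WT. It fell by 3.01 (SE 0.55, adjusted p = 0.00646 by limma), and replicate 2 at 24 h was far below the other 2 libraries. Without that library Lim2 still fell, by 2.27, the smallest value of any alternative.

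Lenep had the largest change of the 8 genes tested in WT on the log2(FPKM + 1) scale. Its FPKM were 81.1, 85.2 and 56.9 at 0 h against 2.15, 1.18 and 7.79 at 24 h, with 4.98% of the mean left. That share depends on replicate 3 at 24 h, since the 24 h mean was 3.71 FPKM with it and 1.67 FPKM without it. The change of -4.24 (SE 0.47, adjusted p = 0.000956 by limma) was the fifth most negative of 15146 genes tested, where Lim2 ranked 21 and Bfsp1 ranked 26.

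Lgsn was the exception. It had 78.3, 57.7 and 42.7 FPKM in WT at 0 h against 56.8, 21.3 and 20.7 a day later, so that 1 library at 24 h was as high as the 0 h group. The change of -0.95 (SE 0.40, adjusted p = 0.107 by limma) did not pass. Without WT 24 h replicate 1 it was -1.42 with an adjusted p of 0.011 by limma, and the adjusted p ran from 0.011 to 0.281 over all alternatives.

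Among the genes of organelle loss, cell survival and RNA regulation, Tdrd7 moved with the least scatter. It went from 57.7, 64.3 and 50.2 FPKM to 25.4, 18.8 and 25.0 in WT, a fall of 1.29 (SE 0.17, adjusted p = 0.00197 by limma). Caprin2, at 8.10, 9.22 and 6.41 FPKM at 0 h and 4.91, 3.37 and 4.20 at 24 h, also did not overlap, and its fall of 0.79 passed the threshold on p (SE 0.18, adjusted p = 0.0169 by limma), but its means differed less than 2-fold and it was not called. Leaving out WT 0 h replicate 1, WT 0 h replicate 2 or WT 24 h replicate 2 took its adjusted p above 0.05, to at most 0.0659. Without WT 0 h replicate 3 or WT 24 h replicate 1 it was called lower, with an adjusted p of 0.0232 and 0.0237 by limma.

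Birc7 and Dnase2b were scarce even at 0 h. Birc7 was at 2.92, 1.74 and 1.52 FPKM in WT at 0 h and was listed at 0 in all 3 libraries at 24 h. Its fitted change was -1.59 on the log2(FPKM + 1) scale (SE 0.21, adjusted p = 0.00205 by limma), a size that depends on the pseudocount, and it passed the filter on low values through its 0 h libraries alone. Without WT 0 h replicate 1 its 0 h mean was under 2 FPKM and it was no longer called (adjusted p = 0.0101 by limma). Dnase2b had 0.64, 1.63 and 0.24 FPKM at 0 h, then 0, 0.073 and 0 at 24 h, a mean too low to be tested. With no filter its change was -0.77 (adjusted p = 0.129 by limma). An exact 0 in these files can be a failed estimate, since Cryaa, the αA-crystallin gene, had 0 in replicate 2 of WT 0 h but no less than 8385 FPKM in any of the other 11 libraries.

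The rule for a call asked for an adjusted p no higher than 0.05, with group means that differed more than 2-fold and by over 2 FPKM and with 1 mean of 2 FPKM or more. Of the 9 genes, 8 passed the filter of a mean of 0.5 FPKM in WT. Birc7 was called lower, but it passed the filter through its 0 h libraries alone, so it could not have been called higher and is left out of the counts that follow. Of the other 7, which averaged 0.5 FPKM or more at both times, 5 were called lower at 24 h (Bfsp1, Bfsp2, Lim2, Lenep and Tdrd7) and 0 higher. Over all genes tested, 3.92% were called lower and 10.3% higher. In 6 of the 7 every 24 h library lay below every 0 h library, compared with 15.6% of all genes tested. The shares over all genes, here and below, include genes that passed the filter through 1 time alone, which the 7 do not. The median change of the 7 was -1.44 and that of all genes was 0.16. The 7 were not chosen independently of such results, so these figures describe the set and do not test it. In bulk RNA, fewer cells of a type and less RNA per cell cannot be told apart.

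When the libraries were scaled to a common median FPKM, the median of all WT genes was -0.05 and the called genes numbered 983 higher and 963 lower, against 1566 and 593 as deposited. All 7 were lower on that scale too, by 1.01 (Caprin2) to 4.46 (Lenep), and Caprin2 was then called as well.

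The same question in β8ITG-cKO LCs gave the same directions. Bfsp1 went from 352, 143 and 242 FPKM to 32.7, 26.1 and 20.1, with 10.7% left, and Bfsp2 from 274, 195 and 236 to 60.2, 74.2 and 54.4, with 26.8% left. The falls were 3.11 (SE 0.31, adjusted p = 0.00021 by limma) and 1.88 (SE 0.16, adjusted p = 0.000101), and the intervals of -3.84 to -2.38 and -2.26 to -1.51 again do not meet. Lim2 went from 146, 176 and 181 FPKM to 28.1, 11.2 and 19.95 FPKM. It fell by 3.11 (SE 0.28, adjusted p = 0.000133 by limma).

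Lenep went from 67.6, 20.7 and 47.6 FPKM down to 5.69, 2.38 and 2.49 FPKM in these LCs. It fell by 3.28 (SE 0.43, adjusted p = 0.000708 by limma), with 7.77% left. Lgsn, which did not pass in WT, went from 75.6, 22.0 and 45.7 FPKM to 20.9, 19.5 and 13.4 and was called, at -1.23 (SE 0.39, adjusted p = 0.0361 by limma). The groups were separated by little, as 0 h replicate 2 lay at 22.0 FPKM beside 20.9 FPKM in the highest 24 h library. The call was lost with an adjusted p of up to 0.104 when no filter was used or when any 1 library other than 0 h replicate 2 was left out.

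Tdrd7 again changed with little scatter, from 68.3, 64.5 and 71.7 FPKM to 27.1, 26.6 and 26.02. It fell by 1.33 (SE 0.085, adjusted p = 3.08e-05 by limma), to 39.0% of its 0 h mean, beside 40.2% in WT. Caprin2 went from 8.22, 8.43 and 9.35 FPKM to 3.83, 5.86 and 5.27, a fall of 0.71 (SE 0.15, adjusted p = 0.00585 by limma) that was under 2-fold. Birc7 had 3.62, 0.29 and 2.80 FPKM at 0 h against 0.099, 0 and 0 a day later. It again passed the filter through its 0 h libraries alone. Its change of -1.45 was called (SE 0.43, adjusted p = 0.0266 by limma), and that call was lost, with an adjusted p of up to 0.0869, with no filter or without any 1 library other than 0 h replicate 2. Dnase2b, at 1.03, 0.13 and 0.44 FPKM at 0 h and 0, 0 and 0.082 at 24 h, was too low to be tested.

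With Birc7 again left out, 6 of the 7 genes that averaged 0.5 FPKM or more at both times were called lower in β8ITG-cKO LCs and 0 higher, where 3.77% of all genes tested were called lower and 11.3% higher. For all 7 the 0 h and 24 h libraries did not overlap, with 24 h lower, compared with 14.0% of all genes tested. The median change of the 7 was -1.88 and that of all genes 0.23. The called genes were 1719 higher and 575 lower as deposited and 1173 and 878 after rescaling, where all 7 were called lower. Leaving out any of the 5 libraries other than 0 h replicate 2 left 5 of the 7 called. In WT, leaving out 1 library gave from 5 to 7 called.

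Some of the lens epithelial markers were also lower at 24 h. Of the 6, 1 (Foxe3) was called lower in WT and 4 (Foxe3, Cdh1, Pdgfra and Pitx3) in β8ITG-cKO, with 0 higher and median changes of -0.55 and -1.28. Foxe3, a transcription factor gene of the epithelium, went from 74.3 to 36.3 FPKM in WT and from 142 to 31.2 in β8ITG-cKO. Cdh1 (E-cadherin) went from 59.1 to 80.9 FPKM in WT, with a difference of under 2-fold, and fell from 95.04 to 42.4 in β8ITG-cKO. The part of this in the changes of the fiber genes was not tested.

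**Figure D2:**
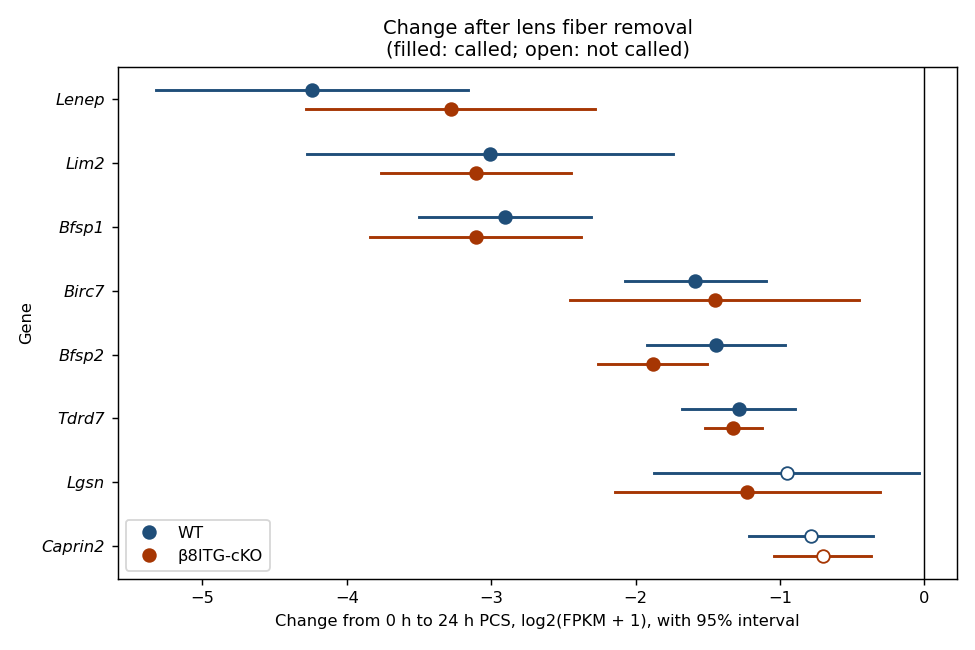
Change from 0 h to 24 h PCS of the 8 genes tested, on the log2(FPKM + 1) scale, in WT (blue) and β8ITG-cKO LCs (brown), with 95% intervals from limma; filled points were called and open points were not. Lenep, Lim2 and Bfsp1 lie between -4.24 and -2.90 in both genotypes, and Caprin2 is nearest to 0.

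The fall differed in size within the set. Birc7 kept 0% of its 0 h mean in WT and 1.48% in β8ITG-cKO, and Dnase2b kept 2.90% and 5.08%, both from low levels. Lenep, Lim2 and Bfsp1 kept 4.98% to 14.6% of their 0 h mean, Bfsp2, Lgsn and Tdrd7 kept 26.8% to 55.3%, and Caprin2 kept 52.6% in WT and 57.5% in β8ITG-cKO. In WT the shares of Lenep (4.98%) and Lgsn (55.3%) depended on a single library. Without WT 24 h replicate 3 Lenep averaged 1.67 FPKM at 24 h, against 3.71 with it. Without WT 24 h replicate 1 Lgsn averaged 21.0 FPKM at 24 h, against 32.9 with it. Among pairs of the 9, the profiles of Caprin2 and Tdrd7 over the 12 libraries were the most alike, with a root mean square difference of 0.31 in centred log2(FPKM + 1), and those of Lenep and Caprin2 the least alike, at 1.67. The 12 libraries share 2 time points, so these figures describe the time change above all.

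Replicates also differed for the set as a whole. Within WT 0 h, replicate 3 was the lowest library for all 9 genes, with a median of 0.45 below the other 2 libraries on the log2 scale, while the median of all genes was 0.12 below. In WT 24 h, replicate 2 was lowest for 6 genes (median -0.44, and 0.11 for all genes). Within β8ITG-cKO 0 h, replicate 2 was lowest for 7 genes (median -0.59, and -0.05 for all genes), but Lim2 and Caprin2 were not lowest there. Replicate 1 of that group stood furthest from its partners of all 12 libraries, highest for 6 genes (median 0.67, and 0.05 for all genes) and lowest for Lim2 and Caprin2. Replicate 2 was at 143 FPKM for Bfsp1 where the other 2 were at 352 and 242, yet at 176 FPKM for Lim2, between the 146 and 181 FPKM of the other 2.

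**Figure D3:**
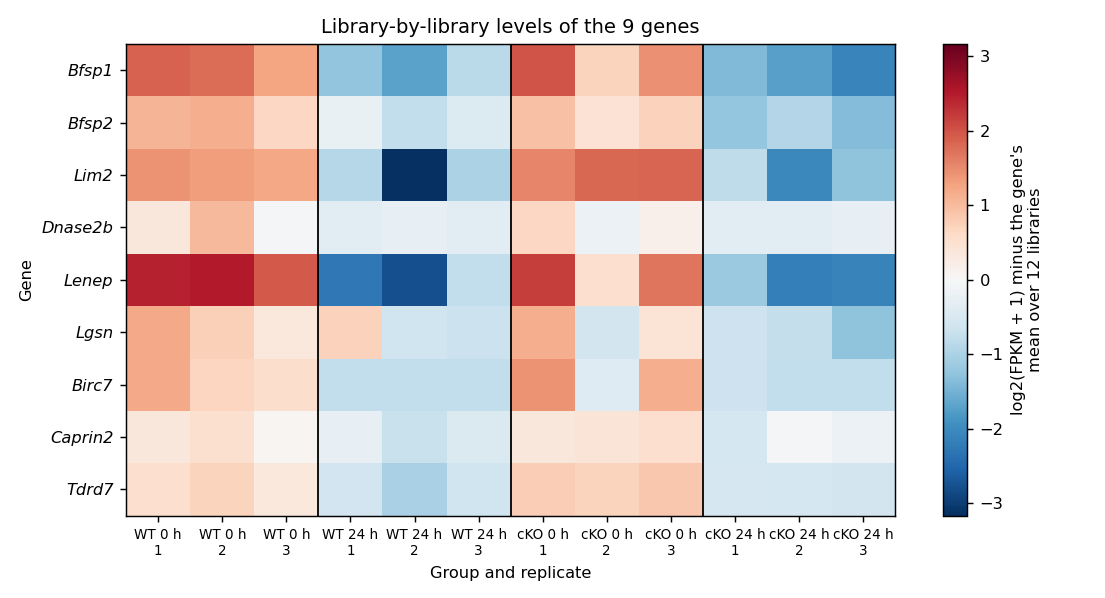
Level of each gene (rows) in each library (columns, by group and replicate) as log2(FPKM + 1) minus the mean of that gene over the 12 libraries; red is above and blue below that mean. The 0 h columns are mostly red and the 24 h columns blue, and replicate 2 of β8ITG-cKO 0 h is paler than its neighbours for Bfsp1, Lenep, Lgsn and Birc7.

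The second question was whether LCs labelled β8ITG-cKO differed from WT in these genes at either time. At 0 h, all 9 genes were tested and 0 were called. With 9 genes this is near the background, where 2.52% of all genes tested were called in either direction. Lim2 was the single gene with an unadjusted p under 0.05, of 0.0108 by limma, and stood at 146, 176 and 181 FPKM in β8ITG-cKO against 134, 125 and 118 in WT. These groups do not overlap, and the difference was 0.41 (95% interval 0.12 to 0.69, adjusted p = 0.0907 by limma, and 0.0745 to 0.671 over the alternatives). Tdrd7 did not overlap either, higher in β8ITG-cKO by 0.25 (95% interval -0.02 to 0.52, adjusted p = 0.245 by limma). Groups that do not overlap were found for 30.8% of all genes tested at 0 h, and with so few genes 2 in 9 is near that share.

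The other 7 genes had intervals that include 0. Lenep had the largest difference of them on the log2(FPKM + 1) scale, -0.83, with means of 45.3 FPKM in β8ITG-cKO and 74.4 in WT (95% interval -1.72 to 0.05, adjusted p = 0.234 by limma). The differences were -0.26 for Bfsp1 (95% interval -0.99 to 0.48), -0.26 for Bfsp2 (-0.67 to 0.15) and -0.43 for Lgsn (-1.38 to 0.51), so a difference of 1 log2 unit lies within the interval of Lgsn and not in those of the beaded filament pair.

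At 24 h, 7 genes could be tested and 0 were called, beside 3.66% of all genes tested. Bfsp2 was the single gene with an unadjusted p under 0.05, of 0.00646 by limma. Its levels were 60.2, 74.2 and 54.4 FPKM in β8ITG-cKO and 121, 83.2 and 106 in WT, and the highest β8ITG-cKO library lay below the lowest WT library. The difference was -0.70 (SE 0.19, 95% interval -1.14 to -0.26, adjusted p = 0.0767 by limma). The adjusted p was 0.0368 in 1 fit over all 12 libraries and 0.243 at most over the alternatives, and the means differed by less than 2-fold, so Bfsp2 was called in none. Mice of 129 strains are known to carry a natural deletion within Bfsp2, and the allele in these mice was not analysed here.

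Tdrd7 was again a little higher in β8ITG-cKO, at 27.1, 26.6 and 26.02 FPKM against 25.4, 18.8 and 25.0, with no overlap and a difference of 0.21 (95% interval -0.13 to 0.55, adjusted p = 0.479 by limma). Groups without overlap were found for 26.5% of all genes tested at 24 h. Bfsp1 differed by -0.46 (95% interval -1.05 to 0.13), Lgsn by -0.71 (-1.60 to 0.19), Lim2 by 0.31 (-1.12 to 1.75), Lenep by 0.13 (-1.07 to 1.33) and Caprin2 by 0.21 (-0.23 to 0.65). The sign for Lim2 rested on WT 24 h replicate 2, without which it was -0.43. For Lim2 and Lenep the intervals span more than 2 log2 units, so even a 2-fold difference was not detectable with these libraries.

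**Figure D4:**
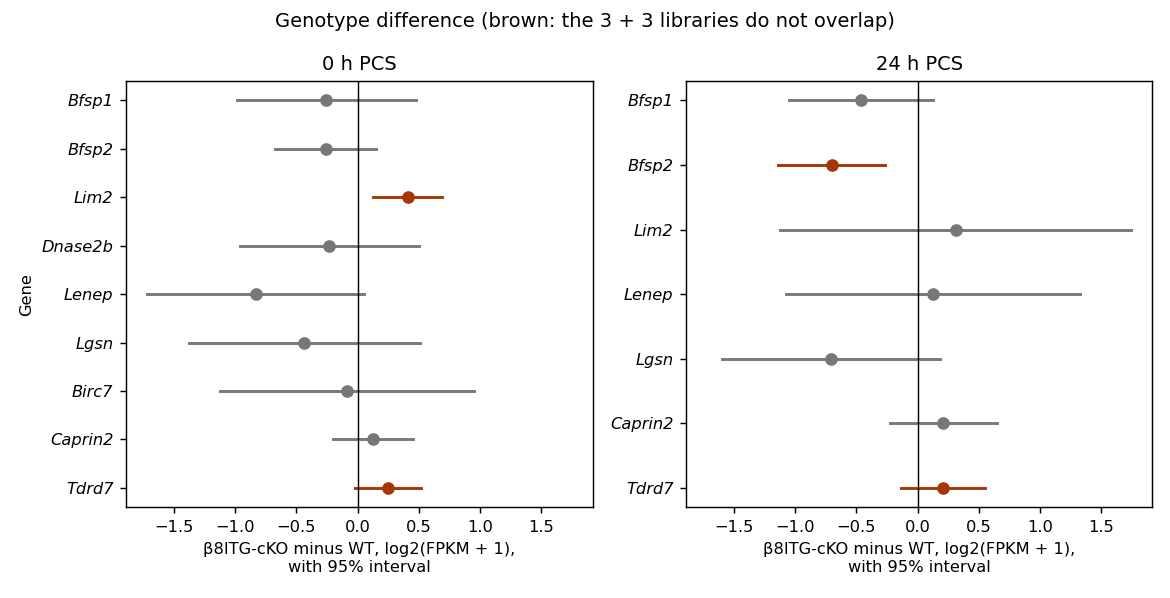
Difference between β8ITG-cKO and WT LCs (β8ITG-cKO minus WT, log2(FPKM + 1)) at 0 h PCS (left, 9 genes) and 24 h PCS (right, 7 genes), with 95% intervals from limma; brown marks genes whose 3 and 3 libraries do not overlap. The intervals of Lim2 at 0 h and of Bfsp2 at 24 h exclude 0, although neither gene passed the adjustment over all genes.

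The change over time was then compared between the genotypes in 1 fit over the 12 libraries. Of 8 genes tested, 0 passed (and 0 had an unadjusted p under 0.05). With 8 genes this is near the background, where 9.39% of all genes tested passed. Lenep had the widest difference, falling less in β8ITG-cKO by 0.96 (95% interval -0.61 to 2.53, adjusted p = 0.46 by limma), and Bfsp2 fell more in β8ITG-cKO, with -0.44 (95% interval -1.03 to 0.15, adjusted p = 0.358 by limma). Tdrd7 had the narrowest interval, -0.44 to 0.36 around -0.04. The comparisons over time and between genotypes use the same libraries, so they are not independent of each other.

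Related lens genes were taken in 4 lists. They too were drawn up with earlier results known, and each is described by its counts beside the background above. Of 13 other genes of fiber structure and membrane, 5 were called lower and 2 higher in WT at 24 h, and 5 lower and 0 higher in β8ITG-cKO, with median changes of -0.23 and -0.47. Mip (aquaporin 0), the main water channel of the fiber membrane, fell from 259 to 34.2 FPKM in WT and from 441 to 45.7 FPKM in β8ITG-cKO, changes of -3.13 (adjusted p = 0.00368 by limma) and -3.25 (adjusted p = 6.55e-05).

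The genes called higher in that list were Vim, the intermediate filament vimentin that lens epithelium also makes, and Tmod1, which caps actin filaments. In WT, Vim rose from 1493 to 4066 FPKM (1.44, adjusted p = 0.0058 by limma) and Tmod1 from 1.71 to 4.31 FPKM (0.95, adjusted p = 0.0124). With no filter on low values Vim no longer passed (adjusted p = 0.0752 by limma). In β8ITG-cKO neither was called. Vim went from 1916 to 2810 FPKM (0.54, adjusted p = 0.0413 by limma, under 2-fold) and Tmod1 from 2.15 to 2.45 FPKM (0.09, adjusted p = 0.724). The interaction of genotype and time did not pass for Vim (-0.90, adjusted p = 0.0611 by limma) or Tmod1 (-0.85, adjusted p = 0.0924).

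For organelle loss and turnover of RNA or protein in fibers, 13 of 15 listed genes could be tested. In WT 4 were called lower and 0 higher, with a median of -0.26, and in β8ITG-cKO 3 were lower and 0 higher, with a median of 0.00. Bnip3l, a receptor that marks mitochondria for removal, went from 63.2 to 28.6 FPKM in WT (-1.11, adjusted p = 0.00227 by limma) and from 64.6 to 30.0 in β8ITG-cKO (-1.09, adjusted p = 0.000217). Pla2g16, a phospholipase that acts on organelle membranes in the lens, went from 45.9 to 20.7 FPKM in WT (-1.09, adjusted p = 0.0045 by limma) and from 47.4 to 21.5 in β8ITG-cKO (-1.14, adjusted p = 0.00323).

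The interaction passed for 2 of the 13 genes of that list, beside 9.39% of all genes tested, and they are named here after their values were seen. Bnip3, a mitophagy receptor related to Bnip3l, went from 16.4 to 6.94 FPKM in WT and from 16.4 to 25.1 in β8ITG-cKO, where the times overlap. The difference of its changes was 1.57 (adjusted p = 0.0401 by limma), which no longer passed with no filter or without any 1 library except β8ITG-cKO 24 h replicates 1 and 3 (adjusted p of up to 0.089). Fyco1, which links autophagosomes to microtubule transport, went from 13.9 to 9.12 FPKM in WT and from 12.3 to 19.9 in β8ITG-cKO, with a difference of 1.20 (adjusted p = 0.0118 by limma), and at 24 h it was called higher in β8ITG-cKO than in WT (1.06, adjusted p = 0.00752). Markers of photoreceptors and retina moved the same way, as 10 of 10 passed the interaction (median 3.56) and 10 of 10 were called higher in β8ITG-cKO at 24 h (median 2.89). The part of retinal RNA in the values of Bnip3 and Fyco1 was not tested.

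Of 23 regulators of fiber differentiation, 5 were called lower and 3 higher in WT (median -0.38), and 10 lower and 2 higher in β8ITG-cKO (median -0.63). Cdkn1c, an inhibitor of the cell cycle, fell from 51.5 to 9.81 FPKM in WT (-2.30, adjusted p = 0.000386 by limma) and from 48.4 to 9.86 in β8ITG-cKO (-2.23, adjusted p = 0.000213). The receptor gene Fgfr2 fell from 42.9 to 20.2 FPKM in WT (-1.04, adjusted p = 0.00266 by limma) and from 49.3 to 18.9 in β8ITG-cKO (-1.34, adjusted p = 5.83e-05). The transcription factor gene Prox1 went from 94.97 to 39.7 FPKM in β8ITG-cKO (-1.24, adjusted p = 0.000168 by limma) and from 94.3 to 50.5 in WT, where its change of -0.89 passed on p (adjusted p = 0.00335) but was under 2-fold. Maf, another, went from 68.9 to 22.6 FPKM in β8ITG-cKO (-1.57, adjusted p = 2.93e-05 by limma) and from 43.8 to 25.6 in WT, where its change of -0.76 passed on p (adjusted p = 0.0096) and was likewise under 2-fold. Jag1, a Notch ligand, rose from 11.5 to 44.7 FPKM in WT (1.77, adjusted p = 0.00693 by limma) and from 21.7 to 50.0 in β8ITG-cKO (1.19, adjusted p = 0.00116). Spry2, an inhibitor of receptor tyrosine kinase signaling, rose by 1.11 (adjusted p = 0.00669 by limma) and 1.09 (adjusted p = 0.000442).

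The last list held 16 crystallins, the main soluble proteins of the fiber. Of these, Cryga, Crygd, Cryge and Crygf in WT and Cryga in β8ITG-cKO were under 0.5 FPKM at 24 h and passed the filter through their 0 h libraries alone, so like Birc7 they are left out of the counts. Of the other 12 in WT, 9 were called lower and 0 higher (median -2.24), and of the other 15 in β8ITG-cKO, 15 were called lower (median -2.86). Cryba1 fell from 4317 to 893 FPKM in WT (-2.37, adjusted p = 0.00532 by limma). Cryab, a small heat shock protein that the epithelium also makes, fell from 11614 to 4554 FPKM (-1.35, adjusted p = 0.0251 by limma), a call that was lost under some alternatives, with an adjusted p of up to 0.398. In β8ITG-cKO, Crybb2 fell from 30830.0 to 7232 FPKM (-2.10, adjusted p = 0.00136 by limma) and Cryaa from 27924 to 9054 FPKM (-1.63, adjusted p = 0.00377). Both of these calls were lost with no filter (adjusted p = 0.139 and 0.26 by limma), and that of Cryaa also in 1 fit over all 12 libraries, which include the library listed at 0 (adjusted p = 0.683).

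**Figure D5:**
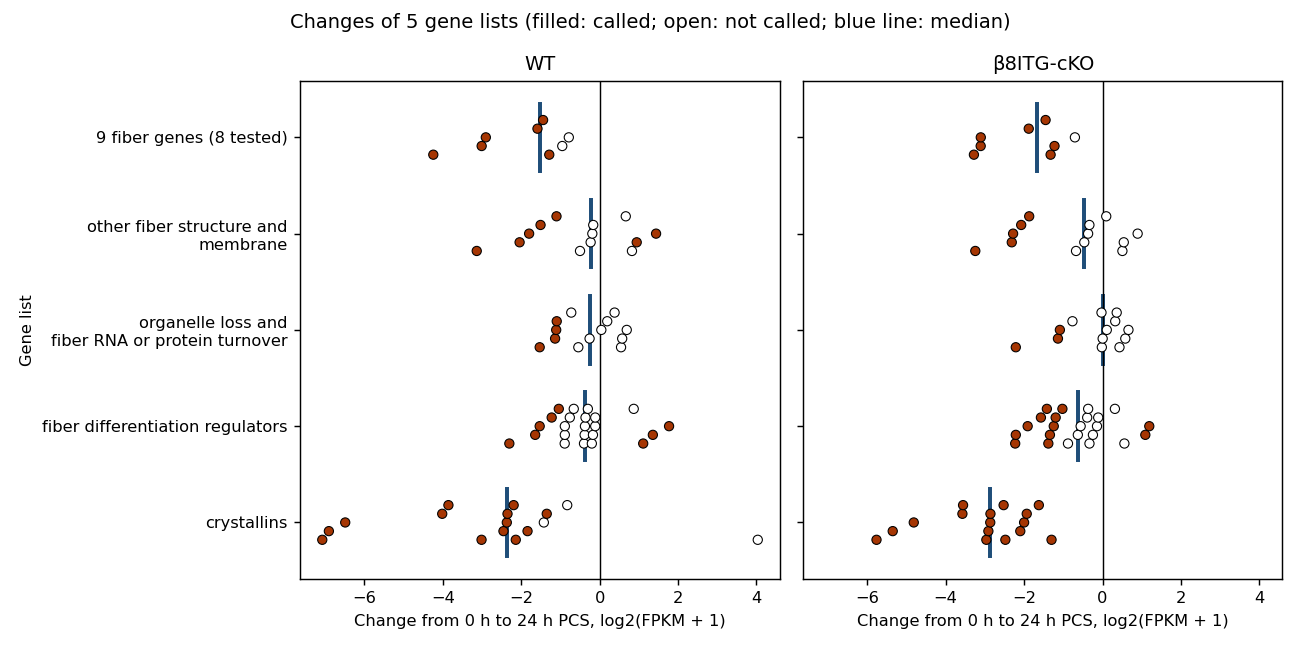
Change from 0 h to 24 h PCS (log2(FPKM + 1)) of each tested gene in 5 lists, in WT (left) and β8ITG-cKO LCs (right); filled points were called, open points were not, and the blue line is the median of the tested genes, Birc7 and the crystallins under the filter at 24 h included. The 9 fiber genes (8 tested) and the crystallins lie wholly or mostly below 0, while the other 3 lists have members on both sides; the crystallin point near 4 in WT is Cryaa, listed at 0 in 1 WT 0 h library.

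The genes whose profile over the 12 libraries was closest to the mean profile of the 9 were found among 7288 other genes (mean FPKM 5 or higher), by the root mean square difference in centred log2(FPKM + 1). They were Ctnna2 (0.21), Sema3d (0.24), Palm2 (0.24), Crybb2 (0.27), Lsamp (0.28), Tmem40 (0.28), Arvcf (0.28) and Grifin (0.30), where the mean profile itself had a root mean square of 0.97. Ctnna2 had mean FPKM of 24.3 and 5.15 in WT at 0 h and 24 h, and 22.9 and 5.56 in β8ITG-cKO. Gene by gene, Bfsp2 was closest to Crybb2 (0.14), Lim2 to Mip (0.26), Bfsp1 to Gdf10 (0.40), Lgsn to Rxrg (0.36), Caprin2 to Atraid (0.12) and Tdrd7 to Irs1 (0.14). Second in line were Gstm7 for Bfsp2 (0.25), Fabp5 for Lim2 (0.26), Sox2ot for Bfsp1 (0.44), Cryba4 for Lenep (0.75), Sez6l for Lgsn (0.41), Parm1 for Caprin2 (0.13) and Fry for Tdrd7 (0.16). For Birc7 and Dnase2b no gene is given, because at their low FPKM the pseudocount sets most of the profile. All these points share the 2 time groups, and the measure is a description.

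RNA of other cell types was present and also varied with condition. The 10 photoreceptor and retina markers summed to 348, 1180 and 140 FPKM in WT 0 h, 74.7, 132 and 141 in WT 24 h, 336, 183 and 270 in β8ITG-cKO 0 h, and 1018, 870 and 1015 in β8ITG-cKO 24 h, and none was at 0. All 10 were called higher in β8ITG-cKO than in WT at 24 h. The 6 neutrophil markers rested on Csf3r, S100a8 and S100a9. Their sum lay between 0.134 and 0.184 FPKM in WT 0 h and between 41.4 and 57.9 in WT 24 h. In β8ITG-cKO it lay between 0.228 and 0.665 FPKM at 0 h and between 10.5 and 30.8 at 24 h. Ly6g, Mpo and Elane were listed at 0 in all 12 libraries, S100a8 in all 6 libraries of 0 h, and S100a9 in 4 of those 6. Macrophage markers (6, with Lyz2 the most abundant in 11 libraries and Cd68 in 1) summed to 6.82 to 12.7 FPKM at 0 h and 18.8 to 39.5 at 24 h.

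Red cell markers (5, with Hba-a1 the most abundant in 11 libraries) summed to 68.0 to 153 FPKM in WT 0 h, 36.0 to 220 in WT 24 h, 6.52 to 15.8 in β8ITG-cKO 0 h and 87.4 to 195 in β8ITG-cKO 24 h. The 6 iris and ciliary pigment markers, with Dct the most abundant in 7 libraries and Oca2 in 5, summed to 36.5 to 107 FPKM in WT 0 h and 13.3 to 35.5 elsewhere. The sum of the 6 corneal epithelial markers ran from 140 to 921 FPKM, but most of it was Aldh3a1 in every library, and Krt12, Krt5, Krt14 or Trp63 was at 0 in some libraries. Corneal stroma markers (Kera, Lum and Dcn, with Dcn the most abundant in 10 libraries) summed to at most 2.80 FPKM. The part of such RNA in the changes of the 9 fiber genes and of the related lists was not tested.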

How the data were processed

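RNA from capsules with attached LCs was prepared by the authors as stranded total RNA libraries (SMARTer Pico kit) and sequenced on a NovaSeq instrument. The submitters' processing notes name FastQC, cutadapt 1.12, TopHat2 2.1.0, Cuffdiff 2.2.1 and the builds mm10 and GRCm38.p5. The authors deposited FPKM per library in 4 tables. Their 16 group value columns and their fold changes, p-values and q values were not used. Read counts were not used here, so counting error is unknown. Each pair of groups (6 libraries) was fitted with limma 3.58.1 (R 4.3.3, limma-trend) on log2(FPKM + 1), keeping genes that averaged 0.5 FPKM or more, with Benjamini-Hochberg adjustment over all genes tested. The interaction used 12 libraries. The fits were tested on simulated data, but no outcome of that is given here.

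The 9 genes and the lists were chosen with earlier results of these data known. All 9 are reported. From each related list, up to 2 genes of highest mean FPKM called in each direction are named, and a few genes that these rules pick are not reported here. Alternatives covered the pseudocount (0.1, 0.5), the filter (none, or 2 FPKM), rescaling to 1 median (genes averaging 2 FPKM or more), 1 fit over 12 libraries, the replicate number as a block and each library left out. The libraries are labelled as biological replicates. Figures were drawn with Python 3.11.15 and matplotlib 3.10.9.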

Additional observations from a re-analysis of the deposited data

Results flagged for a closer look

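Maf, a transcription factor gene of the list of fiber differentiation regulators, changed to a different extent in the 2 genotypes, by the test of the interaction of genotype and time. It was at 46.2, 44.7 and 40.6 FPKM in WT 0 h and 30.2, 22.3 and 24.4 FPKM in WT 24 h, against 65.0, 72.3 and 69.5 FPKM in β8ITG-cKO 0 h and 20.7, 24.6 and 22.4 FPKM in β8ITG-cKO 24 h. The change in β8ITG-cKO minus that in WT was -0.81 on the log2(FPKM + 1) scale (SE 0.18, adjusted p = 0.0167 by limma), and the adjusted p ran from 0.0144 to 0.0496 over the alternatives. The genotypes already differed at 0 h, where Maf was higher in β8ITG-cKO by 0.64 (adjusted p = 0.0154 by limma, under 2-fold) with no overlap. At 24 h the difference was -0.17 (adjusted p = 0.586 by limma). In its list 3 of 23 genes passed this test, all with a lower change in β8ITG-cKO, beside 9.39% of all genes tested. The other 2 were Sox1 (-0.84, adjusted p = 0.0202 by limma, and up to 0.057 with 1 library left out) and Spry1 (-1.04, adjusted p = 0.0119). Of 13 genes of organelle loss and turnover, 2 passed with a higher change in β8ITG-cKO, Bnip3 (1.57, adjusted p = 0.0401 by limma) and Fyco1 (1.20, adjusted p = 0.0118). All 10 photoreceptor and retina markers passed in that direction too (median 3.56), and their part in these values was not tested.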

How the results depend on the processing

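In WT the falls of Bfsp1, Bfsp2, Lim2, Lenep and Tdrd7, and in β8ITG-cKO those of Bfsp1, Bfsp2, Lim2, Lenep, Tdrd7 and Caprin2, kept their direction and an adjusted p of at most 0.05 by limma under every alternative in which they were tested, while Lgsn in both genotypes, Caprin2 in WT and Birc7 in β8ITG-cKO crossed the threshold under some. Of the 9 genes, 0 were called between genotypes under any alternative. The cause of the shifts below was not tested. Genes of all kinds called between genotypes at 0 h numbered 130 with no filter, 224 with the replicate block and 125 to 378 with 1 library left out, against 371. At 24 h the latter range was 371 to 638, against 562. The interaction was found for 930 genes with a filter of 2 FPKM and 688 to 1921 with 1 library left out, against 1433. Genotype differences near 0 changed sign when 1 library was left out, and ranged at 0 h from -0.84 to 0.024 for Lgsn, -0.56 to 0.085 for Bfsp1 and -0.44 to 0.48 for Birc7, and at 24 h from -0.43 to 0.71 for Lim2 and -0.30 to 0.71 for Lenep. The difference of the changes ranged from -0.034 to 0.23 for Caprin2, -0.84 to 0.30 for Lim2, -0.73 to 0.19 for Lgsn, -0.55 to 0.10 for Bfsp1, -0.43 to 0.49 for Birc7 and -0.17 to 0.051 for Tdrd7. The WT change of Cryaa ranged from -0.86 to 6.53, negative only without the library that lists it at 0. That of Tmod1 in β8ITG-cKO ranged from -0.13 to 0.24 and was -0.11 after rescaling. Samples with the same replicate number did not deviate together (correlations from -0.218 to 0.082), and with the replicate block 5 of the 7 genes over the filter at both times were called lower in WT and 6 in β8ITG-cKO, as without it, beside 561 of 15146 and 576 of 15237 genes of all kinds, while Lgsn in WT passed with an adjusted p of 0.0254 by limma. No depth was given, so low values such as those of Dnase2b and Birc7 have no counting interval.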

Other observations

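The ratio of Bfsp1 to Bfsp2 within a library, which does not depend on how a library is scaled, was chosen after the values were seen. It was 1.07, 0.961 and 0.925 in WT 0 h and 0.3004, 0.318 and 0.455 in WT 24 h, and 1.28, 0.734 and 1.03 in β8ITG-cKO 0 h and 0.544, 0.351 and 0.370 in β8ITG-cKO 24 h. The times do not overlap in either genotype. The log2 change of the ratio was -1.49 in WT and -1.26 in β8ITG-cKO, each with p = 0.1 by a two-sided exact permutation test of 3 libraries against 3, which is the smallest such a design can give. With 1 library left out it lay between -1.67 and -1.37 in WT and between -1.47 and -1.07 in β8ITG-cKO. The change was 0.23 higher in β8ITG-cKO than in WT, a difference that was not tested.

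In replicate 2 of β8ITG-cKO 0 h, where Bfsp1, Lenep, Lgsn and Birc7 were lowest of their group, the membrane gene Mip was highest, at 556 FPKM beside 323 and 445 in the other replicates.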
